A study of Mus musculus with 8 samples.

Results

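The cell barcodes described here are those that a mitochondrial quality limit sets aside in a single-cell RNA-seq study of the mouse kidney after ischemia-reperfusion injury (IRI). They were chosen by 3 numbers: more than 300 detected genes, fewer than 20000 transcripts, and at least 25% of transcripts from genes of the mitochondrial genome. Of 120281 barcodes in the table, 96952 lay within the gene and transcript limits, and 6097 of these reached the mitochondrial limit (6.29%, 95% exact Clopper-Pearson interval 6.14 to 6.44, SD 0.49 over 8 sublibraries). The mitochondrial share was the value that selected them, so that share and everything computed from mitochondrial counts is given as a description. The number of detected genes and the nuclear transcripts entered the rule through its limits and its denominator, so depth and gene number are descriptions too. Which nuclear genes a barcode held was not used, and these were read to ask which nephron segments and which other cells these barcodes came from.

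The mitochondrial genome encodes ribosomal RNAs, transfer RNAs and a small set of respiratory chain subunits, all transcribed inside the organelle. Tubule cells that reabsorb most of the filtered salt and solutes, in the proximal tubule (PT), thick ascending limb (TAL) and distal convoluted tubule (DCT), are among the cells of the body richest in mitochondria, whereas lymphocytes hold few. A high mitochondrial share is widely used as a sign of a damaged or leaking cell, and it can also come from an intact cell with many mitochondria.

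The study used male C57BL/6 mice. Control kidneys came from mice without surgery. The other mice had the left renal pedicle clamped for 30 min with the right kidney left in place, and received DMSO vehicle or entospletinib, an inhibitor of the kinase SYK, at 20 mg/kg by intraperitoneal injection 30 min before surgery, then daily to day 7 and every 2 days to day 14. Kidneys were taken on days 1, 7 and 14, and mice of day 1 had received the first injection only. Each of the 7 conditions was 1 pool of cells from 3 mice, digested, freed of dye-positive dead cells and sorted on scatter to enrich live leukocytes, so the number of tubule cells was set in part by the gate. Fewer cells of a type and less RNA per cell cannot be told apart in summed counts. Cells were fixed and given combinatorial barcodes, with 6 or 7 first-round wells per condition, and every one of the 8 sublibraries held all conditions. Because a condition was a single pool, there is no test between single conditions. Errors below are 95% intervals for counting error, the SD over sublibraries and the range over wells, all of them technical, and reads of 1 pool are not independent mice.

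Barcodes above the limit held a median of 2238 transcripts, of which 1160 were nuclear, from 554 nuclear genes, against 2271, 2159 and 1097 in the barcodes below it. A doublet score marked 18.4% of barcodes above and 10.98% of those below, and doublets were kept. The same combination of wells can occur in several sublibraries, and 1493 of the 6097 barcodes (24.5%) had a combination found more than once among the 120281.

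Nuclear markers of the PT, TAL, DCT, connecting tubule and principal cells, and intercalated cells were higher above the limit than below it. Those of the thin limb of Henle were not. In depth-scaled counts (CPM, relative to all nuclear transcripts of the same barcodes), Lrp2, which encodes the endocytic receptor megalin of the PT (chromosome 2, 69424340 to 69586065, minus strand, GRCm38), reached 1117 CPM above the limit and 97.4 CPM below it. Slc34a1, the sodium-phosphate cotransporter of the PT (chromosome 13, 55398187 to 55415592, plus strand), reached 896 and 84.9 CPM. Slc12a1, the sodium-potassium-chloride cotransporter of the TAL (chromosome 2, 125152505 to 125230002, plus strand), reached 1140 and 127 CPM. As a level in cells that should lack them, B-cell-like and T-cell-like barcodes above the limit carried 375, 161 and 263 CPM of the same 3 genes. Over whole marker lists, the 18 PT markers summed to 8147 CPM above and 962 CPM below the limit, the TAL markers to 3405 and 346 CPM, and the DCT markers to 2379 and 341 CPM. Connecting tubule and principal cell markers summed to 627.5 and 71.1 CPM, and intercalated cell markers to 232 and 60.9 CPM. The thin limb markers summed to 37.5 CPM above and 52.1 CPM below. Macrophage markers were at 732 and 2134 CPM, neutrophil markers at 452 and 1327 CPM and monocyte markers at 151 and 810 CPM. The B cell list differed less, at 431 and 505 CPM, and the basophil and mast cell list was at 12.09 and 11.03 CPM.

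The share of barcodes above the limit differed widely between the pools, 10.5-fold between control and vehicle on day 14. It was 16.8% in the control pool (2255 of 13460, SD 1.21, wells 12.04 to 19.2%). In the vehicle pools it was 3.19% on day 1 (742 of 23231, SD 0.89, wells 1.91 to 5.10%), 7.82% on day 7 (518 of 6628, SD 0.92, wells 3.04 to 11.95%) and 1.59% on day 14 (279 of 17540, SD 0.19, wells 0.588 to 2.67%). In the entospletinib pools it was 2.48% on day 1 (357 of 14398, SD 0.35, wells 1.34 to 3.04%), 17.4% on day 7 (1602 of 9207, SD 1.64, wells 11.4 to 22.0%) and 2.75% on day 14 (344 of 12488, SD 0.30, wells 1.88 to 3.41%). The control pool and the entospletinib pool of day 7 were high, the vehicle pool of day 7 lay between, and the other 4 pools were low.

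**Figure D1:**
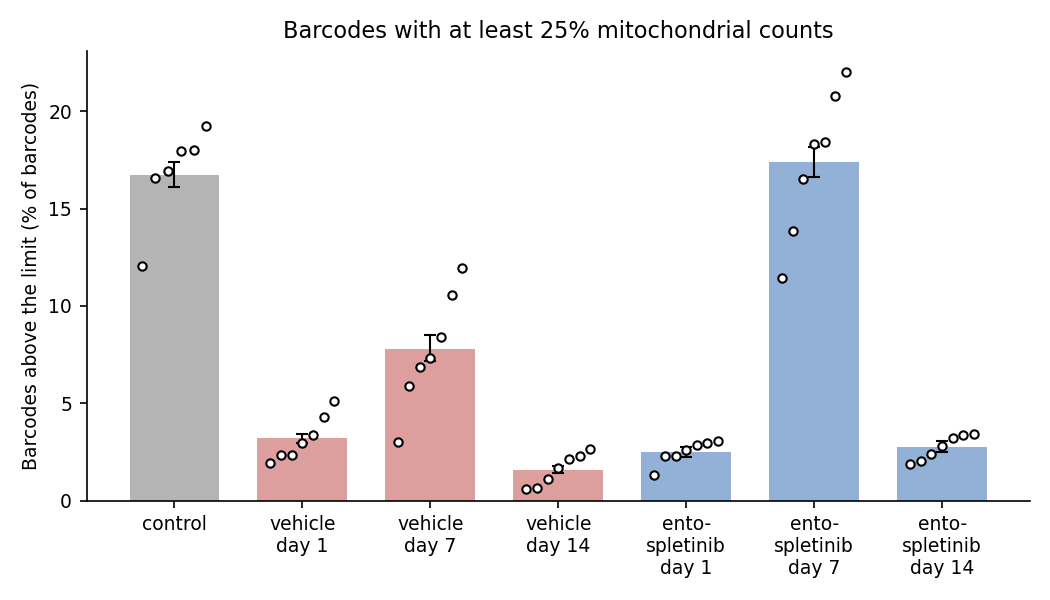
Share of barcodes with at least 25% mitochondrial transcripts (vertical axis, % of barcodes within the gene and transcript limits) in each pool (horizontal axis). Bars give the pool's value, error bars the 95% exact Clopper-Pearson interval and open circles the first-round wells, ordered by value; the wells of the control pool (12.04 to 19.2%) do not overlap those of any vehicle pool.

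Against the shared control pool, the vehicle pools were lower by log2 ratios of -2.39 on day 1, -1.10 on day 7 and -3.40 on day 14, in all 8 sublibraries and with wells that did not overlap. Against vehicle, entospletinib was at -0.37 on day 1 (7 of 8 sublibraries), 1.16 on day 7 and 0.79 on day 14 (8 of 8 sublibraries each), and the wells of both treatments overlapped on all 3 days. The sizes depended on what was counted. Without the 2 mitochondrial rRNA genes, which left few barcodes above the limit, vehicle was at -1.50, -3.96 and -5.95 against control and entospletinib at -1.47, 4.42 and 1.49 against vehicle on days 1, 7 and 14, and with more than 500 genes required the day 14 value was 1.80. Over the 3 days the mean share was 7.545% under entospletinib and 4.20% under vehicle, a difference of 3.35 percentage points that was positive on 2 of 3 days (exact two-sided permutation test within days, p = 0.5, where 0.25 is the smallest p that 3 pairs of pools allow).

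The mitochondrial share of these barcodes ran from the limit of 25% to 96.7%, with a median of 39.7% (quartiles 30.9 and 52.4%), against a median of 3.81% below the limit. Medians by pool were 42.2% in control, 32.9, 39.1 and 37.8% under vehicle on days 1, 7 and 14, and 44.9% under entospletinib on day 7, between 33.8% on day 1 and 34.3% on day 14. The pools with the largest shares of such barcodes also had the highest medians within them. At least 60% mitochondrial transcripts were found in 891 barcodes (14.6%). Just outside the limit, from 24 to 25%, there were 312 barcodes, of which 67.6% were tubule-like by the clusters described further on, and just inside, from 25 to 26%, there were 329, of which 61.4% were tubule-like. Barcodes with at most 300 genes were not part of the set, and 76.3% of those 22032 also passed the mitochondrial limit.

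Mitochondrial ribosomal RNA made up nearly all of the transcripts that placed barcodes above the limit. The 12S rRNA gene mt-Rnr1 gave 43.7% and the 16S rRNA gene mt-Rnr2 gave 46.1% of mitochondrial transcripts, together 89.8% above the limit (SD 0.28 over sublibraries) and 91.4% below it (SD 0.30). Without these 2 genes, only 264 barcodes reached 25%, of which 235 were tubule-like. Among mitochondrial mRNAs, mt-Cytb, the cytochrome b subunit of complex III, gave 23.5%, mt-Nd5, a complex I subunit, 23.5%, and mt-Co1, the catalytic subunit of complex IV, 21.3%. The mRNA share of mitochondrial transcripts differed between pools. It was 9.48% in control, 15.4% under vehicle on day 1 (SD 1.49), 6.34% on day 7 and 6.09% on day 14, and 16.6% (SD 2.07), 9.83% and 10.7% under entospletinib on days 1, 7 and 14. Both day 1 pools were above every other pool, and barcodes below the limit gave 9.86% and 13.2% in the same 2 pools.

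Some mitochondrial genes could not be read from this table. All transfer RNA genes and mt-Atp8 were listed at 0 counts, and mt-Nd4l, mt-Co2, mt-Atp6 and mt-Co3 had 15, 4, 3 and 2 counts in all 6097 barcodes. Of the 50-base windows of these last 4 transcripts, between 98.8 and 100% recurred in other annotated transcripts, foremost those of the predicted genes Gm10222, Gm28661, Gm10925 and Gm28437 on chromosome 1. This did not go with low counts in every gene, since mt-Nd3 shared 98.0% of its windows and had 1027 counts, and mt-Atp8 shared none. The mt-Nd4 and mt-Co1 transcripts shared 62.2% and 51.1% of their windows in the same way, so their levels are uncertain, while mt-Cytb, mt-Nd1 and mt-Rnr1 shared none and mt-Rnr2 shared 1.04%.

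By their nuclear genes most of the barcodes above the limit were tubule-like. All barcodes were clustered on nuclear genes without ribosomal protein genes, and clusters were named from marker genes. Clusters named for tubule segments held 4692 of the 6097 (77.0%, interval 75.9 to 78.0%, SD 2.34), made up of 2136 PT-like barcodes (35.0%), 342 TAL-like barcodes (5.61%) and 2214 barcodes (36.3%) in clusters with markers of several segments. The other 1405 fell among macrophage-like (384), endothelial-like (302), neutrophil-like (279), B-cell-like (142), T-cell-like (105), monocyte-like (63) and dendritic-cell-like (54) barcodes, unnamed clusters (56) and stroma (20), and none of the basophil-like barcodes was above the limit. Seen from the other side, 43.7% of all tubule-like barcodes (4692 of 10738) and 1.63% of all other barcodes were above it.

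The tubule-like share of the barcodes above the limit was 79.3% in control (SD 4.45), 91.0% under vehicle on day 1 (SD 2.63), 55.2% on day 7 (SD 7.84) and 82.1% on day 14 (SD 9.10), and 89.4% (SD 4.20), 67.5% (SD 5.12) and 91.3% (SD 3.55) under entospletinib on days 1, 7 and 14. Against control, the vehicle pool was at a log2 ratio of 0.20 on day 1 and -0.52 on day 7, each in 8 of 8 sublibraries and with wells apart, and at 0.05 on day 14. The day 7 deficit of tubule-like barcodes remained negative under every other naming and filter that was run, but the day 1 excess did not, since it became -1.53 when the barcodes above the limit were clustered alone and -0.30 when each barcode was named by its own markers. Tubule-like barcodes outside the clusters in which over 40% of barcodes were scored as doublets were 64.4% of all barcodes above the limit. They were 68.5% under vehicle on day 1 and 69.5% in control, and the doublet-rich clusters held 22.5% and 9.85% in these 2 pools. Those clusters stayed in the denominator, so these values do not show whether the day 1 excess remained without them. Under the other 2 namings 52.3% and 68.8% of all barcodes above the limit were tubule-like.

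**Figure D2:**
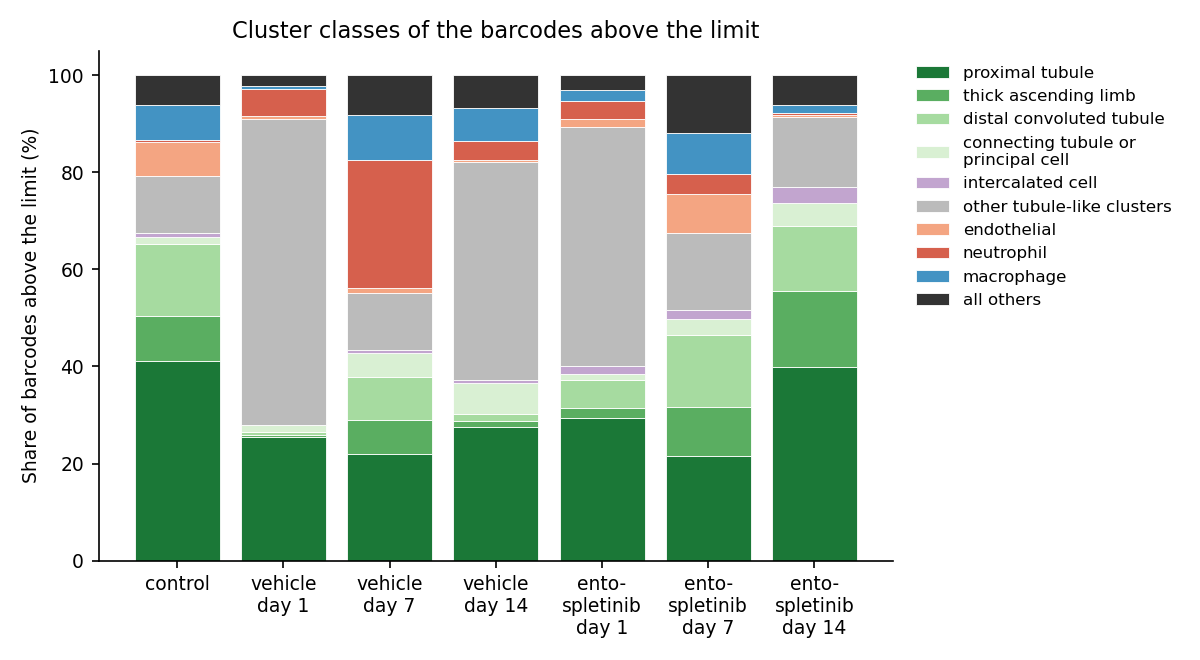
Cluster classes (colours) as a percentage of the barcodes above the limit (vertical axis) in each pool (horizontal axis), with named segments from a second clustering of tubule-like barcodes and other classes from the clustering of all barcodes. Named segments make up 67.5% of the control bar and 27.9% of the vehicle day 1 bar, where other tubule-like clusters take most of the rest.

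Both parts of this balance moved between pools. Among tubule-like barcodes, the share above the limit was 52.7% in control (wells 41.9 to 59.2%), 32.3, 53.8 and 34.8% under vehicle and 29.1, 56.9 and 29.3% under entospletinib on days 1, 7 and 14. Control and both day 7 pools were above the other 4. The wells of each vehicle pool overlapped those of control, and the wells of both treatments overlapped on each day. Among all other barcodes it was 4.64% in control, 0.317, 3.81 and 0.296% under vehicle and 0.286, 7.13 and 0.263% under entospletinib. The same 3 pools were high, and the wells of control did not overlap those of vehicle on days 1 and 14. B-cell-like barcodes were above the limit in 7.99% in control, 4.15% under vehicle on day 7 and 11.4% under entospletinib on day 7, and in less than 1% in each of the other 4 pools. Neutrophil-like barcodes were above it in 13.2% (11 of 83), 6.91% (136 of 1969) and 33.3% (67 of 201) in these 3 pools. The intervals were 6.81 to 22.5%, 5.83 to 8.12% and 26.9 to 40.3%. Of the neutrophil-like barcodes above the limit, 45.45, 24.26 and 41.79% were scored as doublets. The part that tissue handling, day of preparation or fixation had in this pattern was not tested, since each pool was prepared once.

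**Figure D3:**
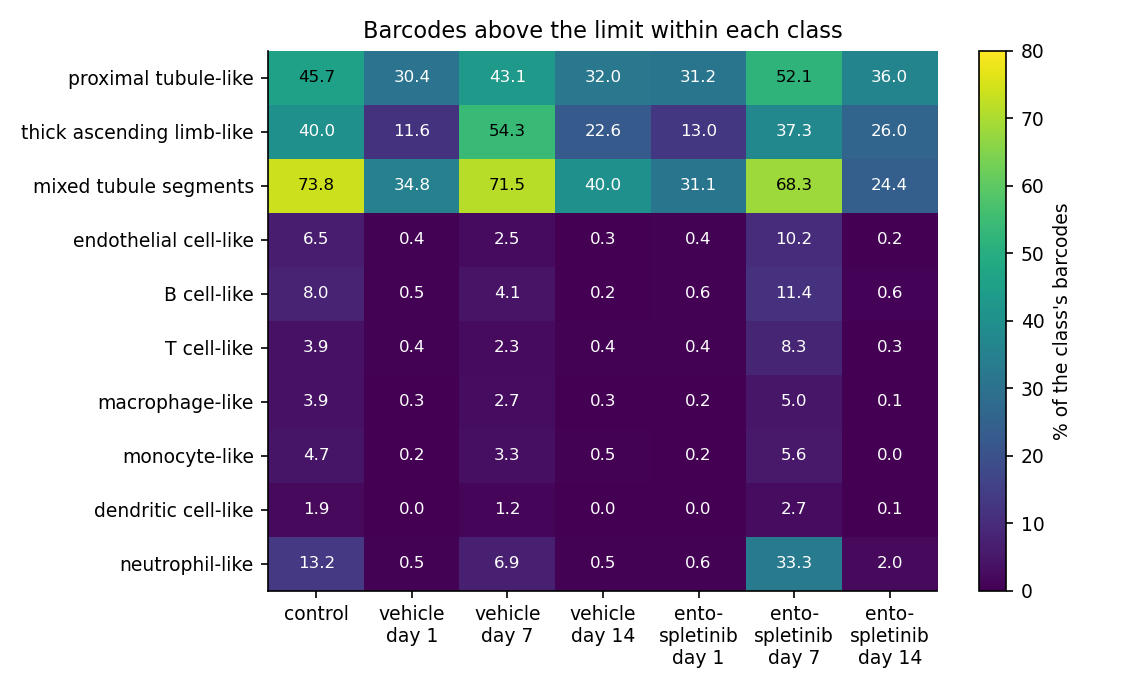
Percentage of each class's barcodes that lay above the limit (colour and printed value) for classes of the clustering of all barcodes (rows) in each pool (columns). Tubule rows range from 11.6 to 73.8% in all pools, while the macrophage row is at 3.86, 2.69 and 4.99% in control and in both day 7 pools and at most 0.268% in the other 4.

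The number of tubule cells in each pool also differed. Tubule-like barcodes were 25.2% of all barcodes within the limits in control, 8.99, 8.03 and 3.76% under vehicle, and 7.61, 20.6 and 8.58% under entospletinib on days 1, 7 and 14. Barcodes that were both tubule-like and above the limit were thus 13.3% of control barcodes, 2.91, 4.31 and 1.31% of vehicle barcodes and 2.22, 11.7 and 2.51% of entospletinib barcodes. On day 7 the entospletinib value was 1.44 above vehicle on the log2 scale (SD 0.26, 8 of 8 sublibraries, wells apart), whereas the share above the limit within tubule-like barcodes differed by 0.08 (SD 0.10).

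A second clustering of the tubule-like barcodes alone, added after the first had been seen, separated the segments. It assigned 3295 of the 6097 (54.0%) to a named segment. PT-like clusters held 1893 (31.0%), DCT-like clusters 692 (11.3%), TAL-like clusters 475 (7.79%), a connecting tubule and principal cell cluster 159 (2.61%) and an intercalated cell cluster 76 (1.25%). A further 765 (12.5%) lay in clusters in which more than 40% of barcodes were scored as doublets, and 632 (10.4%) in other unnamed clusters. The largest doublet-rich cluster (637) was led by the endothelial gene Flt1 and the neutrophil genes S100a8 and S100a9. Smaller ones were led by macrophage genes, by monocyte genes, by Blk and Clec10a of B cells and dendritic cells, and by Kcnh8 and the podocyte gene Wt1. Within the segments, 64.8% of DCT-like, 54.4% of TAL-like, 44.1% of PT-like, 29.1% of connecting tubule and principal cell and 25.7% of intercalated cell barcodes were above the limit. These shares are pooled over conditions, and control and entospletinib day 7 supplied 335 and 236 of the 692 DCT-like barcodes. The order was not the same in every pool. In control, 73.5% of DCT-like (interval 69.2 to 77.5%), 61.05% of TAL-like (55.7 to 66.2%) and 47.5% of PT-like barcodes (45.2 to 49.7%) were above the limit, and under entospletinib on day 14 the values were 32.4% (24.8 to 40.8%), 35.1% (27.6 to 43.2%) and 37.4% (32.5 to 42.6%), with intervals that overlapped. The DCT value also rested on 1 cluster, described further on, with 508 of the 692 and Calb1 above Slc12a3 in level, and the other DCT-like cluster had 34.7% above. The order of the TAL and the PT turned with the clustering. In the clustering of all barcodes, 31.1% of TAL-like (342 of 1100) and 41.7% of PT-like barcodes were above the limit, and in control 40.0% (33.5 to 46.7%) and 45.7% (43.6 to 47.8%).

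Which segments lay above the limit differed by pool. Named segments were 67.5% of the set in control, 27.9, 43.4 and 37.3% under vehicle and 40.1, 51.7 and 77.0% under entospletinib on days 1, 7 and 14. DCT-like barcodes numbered 335 in control (14.9% of its set), 4, 46 and 4 under vehicle, and 21, 236 and 46 under entospletinib. An unnamed cluster described further on, with the DCT markers Slc12a3 and Trpm6, held 199 barcodes above the limit. Most of the 199 came from vehicle on day 1, so the low DCT-like count there does not show that DCT cells were missing. TAL-like barcodes numbered 210 in control (9.31%), 3, 36 and 3 under vehicle, and 7, 162 and 54 under entospletinib. The clustering of all barcodes gave 10 TAL-like barcodes above the limit under vehicle on day 1. On day 14, DCT-like and TAL-like barcodes were 13.4% and 15.7% of the entospletinib set and 1.43% and 1.08% of the vehicle set in the second clustering. In the clustering of all barcodes, TAL-like barcodes were 16.9% (58) and 5.02% (14) of the same sets, a smaller difference. Counting both sides of the limit, the second clustering gave 7 DCT-like and 8 TAL-like barcodes in the vehicle pool of day 14 and 142 and 154 in the entospletinib pool, whereas the clustering of all barcodes gave 62 and 223 TAL-like barcodes. The second clustering placed 79 barcodes of the vehicle pool in an unnamed cluster that carried Slc12a1 and Umod, described further on, so its low counts do not show that TAL cells were missing. PT-like barcodes made up from 21.5% of the set under entospletinib on day 7 to 41.1% in control. The dye exclusion and scatter gate can set these shares, and its part was not tested.

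The DCT-like and TAL-like barcodes each split into a pair of clusters that differed in Malat1, a long RNA retained in the nucleus. The clusters were built from these genes, so the levels are a description. All values are pooled over conditions, and the pools differed in Malat1. In TAL-like barcodes above the limit its median was 0.990% in control and 5.73% under entospletinib on day 14. An order seen over all pools need not hold within each pool. One DCT-like cluster had a median of 0.369% Malat1 per barcode and 94.8% of its barcodes above the limit (508 of 536), and the other had 7.55% Malat1 and 34.7% above (184 of 531). The first held Slc12a3 at 1750 CPM and Calb1, a calcium-binding protein of the distal nephron, at 6091 CPM, and the second held 19150 and 1657 CPM, so the pair differed in segment genes as well as in Malat1. The first was led by Calb1, Pgam2, Pvalb, S100g and Klk1, and when the barcodes above the limit were clustered alone, a cluster led by Calb1, S100g and Klk1 was named mixed tubule segments. Its name as DCT is therefore uncertain. In the TAL the Malat1-poorer cluster (1.48%) had 74.6% above (365 of 489) and the other (6.08%) had 28.6% (110 of 385). Both carried the TAL genes at high levels, with Slc12a1 at 9082 and 13200 CPM, Umod, the urinary protein uromodulin, at 5806 and 5600 CPM, and Egf at 7465 and 10790 CPM. The PT did not show the same order. Its Malat1-poor clusters had 60.1% (786 of 1308), 42.4% (444 of 1047) and 4.65% (23 of 495) above, and its Malat1-rich clusters had 31.5% (205 of 650), 56.5% (362 of 641) and 48.0% (73 of 152). The cluster with 42.4% above carried Slc7a13, a transporter of the late proximal tubule, at 862 CPM, and the cluster with 31.5% above carried Slc5a12, a lactate transporter of the early part, at 2651 CPM.

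**Figure D4:**
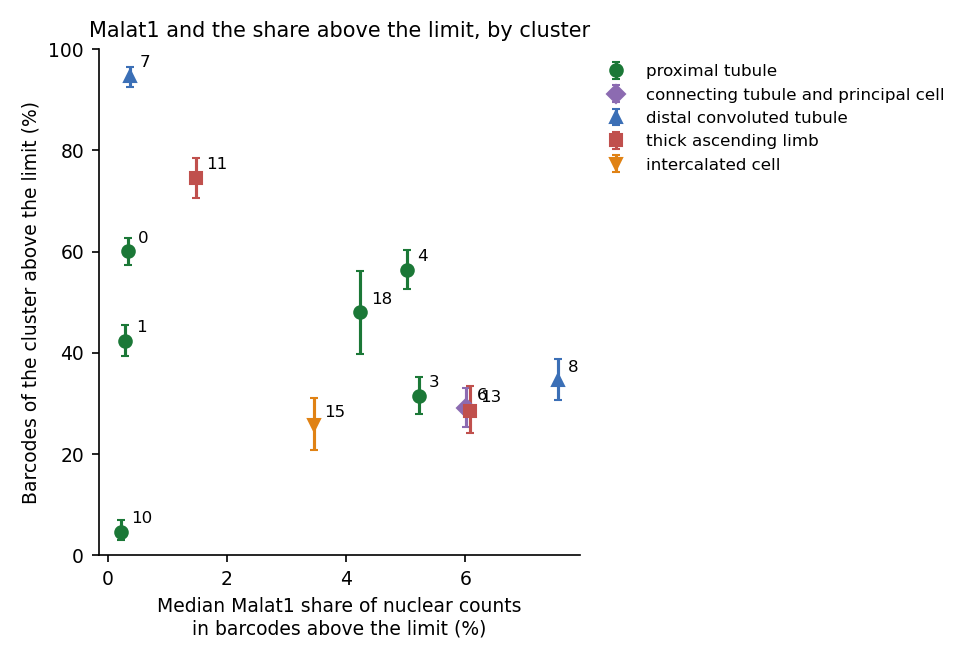
Percentage of barcodes above the limit (vertical axis) against the median Malat1 share of nuclear transcripts in barcodes above the limit (horizontal axis) for clusters of the second clustering, coloured by segment and numbered, with 95% exact intervals. Pooled over conditions, the DCT-like pair (94.8 and 34.7% above) and the TAL-like pair (74.6 and 28.6%) are ordered by Malat1, and the PT-like clusters are not. The order within single pools is not shown.

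Some unnamed tubule-like clusters held Spp1, Clu and Lcn2 at high levels. Unnamed clusters without an excess of doublets held 40.6% of the set under vehicle on day 1 and 35.3% under entospletinib on day 1, 23.7% under vehicle on day 14, and between 1.91 and 4.94% in the other 4 pools. One cluster of 239 barcodes above the limit (59.2% of its 404) had 163 from vehicle and 73 from entospletinib on day 1 and 1 each from control and both day 7 pools. It carried Spp1, which encodes the secreted phosphoprotein osteopontin, at 47690 CPM, clusterin (Clu) at 13280 CPM, and Lcn2, the injury marker lipocalin 2, at 1060 CPM, with the metallothioneins Mt1 and Mt2 at 1209 and 1278 CPM. Umod was present at 2760 CPM and Slc12a1 at 244 CPM, so the cluster was not given a segment name. A cluster of 199, of which 112 came from vehicle on day 1, held Slc12a3 at 7719 CPM beside Spp1 at 12550 CPM. A cluster of 120 held Slc12a1 at 1299, Umod at 2580 and Spp1 at 15210 CPM, with 35 barcodes from vehicle on day 14 and 23 from entospletinib on day 1. In these 3 clusters Lcn2 was at 258 to 1060 CPM, against 2.49 to 15.4 CPM in the 10 named segment clusters whose levels were computed, and Spp1 was at 327 to 3071 CPM in the latter. Other genes of the injury list did not share this order. Havcr1 was at 8.55 to 26.6 CPM in the 3 clusters and at up to 97.3 CPM in a PT-like one, Vcam1 was at 4.27 CPM or less, and Krt20 had no counts.

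The 1405 barcodes that were not tubule-like were unevenly spread. Neutrophil-like barcodes were 136 of the 518 in the vehicle pool of day 7 (26.3%), 40 under vehicle on day 1, 67 under entospletinib on day 7 and 11, 11, 13 and 1 in control, vehicle day 14, entospletinib day 1 and entospletinib day 14. Macrophage-like barcodes numbered 163 in control, 48 under vehicle on day 7 and 134 under entospletinib on day 7, and between 6 and 19 in the others. Endothelial-like barcodes numbered 155 in control and 128 under entospletinib on day 7 and between 1 and 6 elsewhere, and 49.0% of them were scored as doublets. Over the whole series 1.85% of neutrophil-like, 1.45% of macrophage-like and 3.81% of endothelial-like barcodes were above the limit.

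Nuclear genes of PT-like barcodes were compared over conditions, with 1039 in control, 219, 125 and 95 under vehicle and 119, 386 and 153 under entospletinib on days 1, 7 and 14, and 174243 to 1841554 nuclear transcripts per pool. A gene was called where its CPM differed by at least 2-fold, its mean was at least 50 CPM and all 8 sublibraries had the same direction. Sublibraries share their mice, so a call describes 2 pools. Higher and lower calls against control were 254 (7.77%) and 50 (1.53%) of 3271 genes on day 1, 9 (0.345%) and 30 (1.15%) of 2612 on day 7, and 60 (1.92%) and 15 (0.479%) of 3132 on day 14. The 3 comparisons share the control pool. The balance of calls on day 7 was the opposite inside clusters, where in the Malat1-poor and the Malat1-rich PT-like cluster 24 and 114 genes were higher and 6 and 25 lower. On day 14 the Malat1-poor cluster (33 barcodes under vehicle) gave 319 higher and 2 lower, of which 15 and 1 were among the calls of the whole class, and the Malat1-rich cluster gave 56 and 8. Without doublets, day 14 gave 38 higher and 8 lower, of which 10 and 6 were among the calls of the whole class.

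Havcr1 and Spp1 were called higher than control on days 1 and 14 under vehicle and were not called on day 7. Havcr1, which encodes the kidney injury molecule KIM-1 (chromosome 11, 46735080 to 46779578, plus strand), stood at 4.34 CPM in control, 312, 11.5 and 141 CPM under vehicle on days 1, 7 and 14, and 219, 6.65 and 5.04 CPM under entospletinib. The vehicle pools of days 1 and 14 were above control by log2 6.17 (interval 5.16 to 7.40, SD 1.55) and 5.02 (3.86 to 6.36, SD 1.75). Spp1 (chromosome 5, 104435118 to 104441050, plus strand) stood at 554 CPM in control, 6519, 683 and 1678 CPM under vehicle, and 2747, 702 and 616 CPM under entospletinib. Against control it was higher by 3.56 on day 1 (SD 0.51) and 1.60 on day 14 (SD 0.90). Of the 24 genes of the injury and inflammation list, 9 reached the mean CPM needed for a call on day 1. Of these, 7 were called higher (Havcr1, Spp1, Clu, Il34, Cxcl2, Lgals3 and Plin2), with a median log2 of 1.87 against 0.39 over all genes. On day 7 none of 4 was called, and on day 14 3 of 7 were (Havcr1, Spp1 and Cd44), with a median of 1.57 against 0.20. A list gene low in control, such as Havcr1 at 4.34 CPM, reached the needed mean only where vehicle was high. The filter thus partly set these counts and medians, and they do not show how the whole list moved. After Havcr1, the largest higher calls on day 1 were the fibrinogen chain genes Fga at 343 CPM against 20.1, Fgb at 153 against 5.97 and Fgg at 332 against 13.03 CPM, and complement C3 at 106 against 6.52 CPM. On day 7 the 5 largest higher calls were Egr1, an immediate early transcription factor (91.8 against 14.1 CPM), Ccnb1ip1, Akirin2, Il31ra and Il1r2, with log2 ratios from 1.31 to 2.70. On day 14 they were Havcr1 and, at 2.25 to 2.43, Csf2rb, a receptor subunit of myeloid cells, the kinase gene Pim1, thrombospondin 1 (Thbs1) and Samsn1, an adaptor of blood cells.

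**Figure D5:**
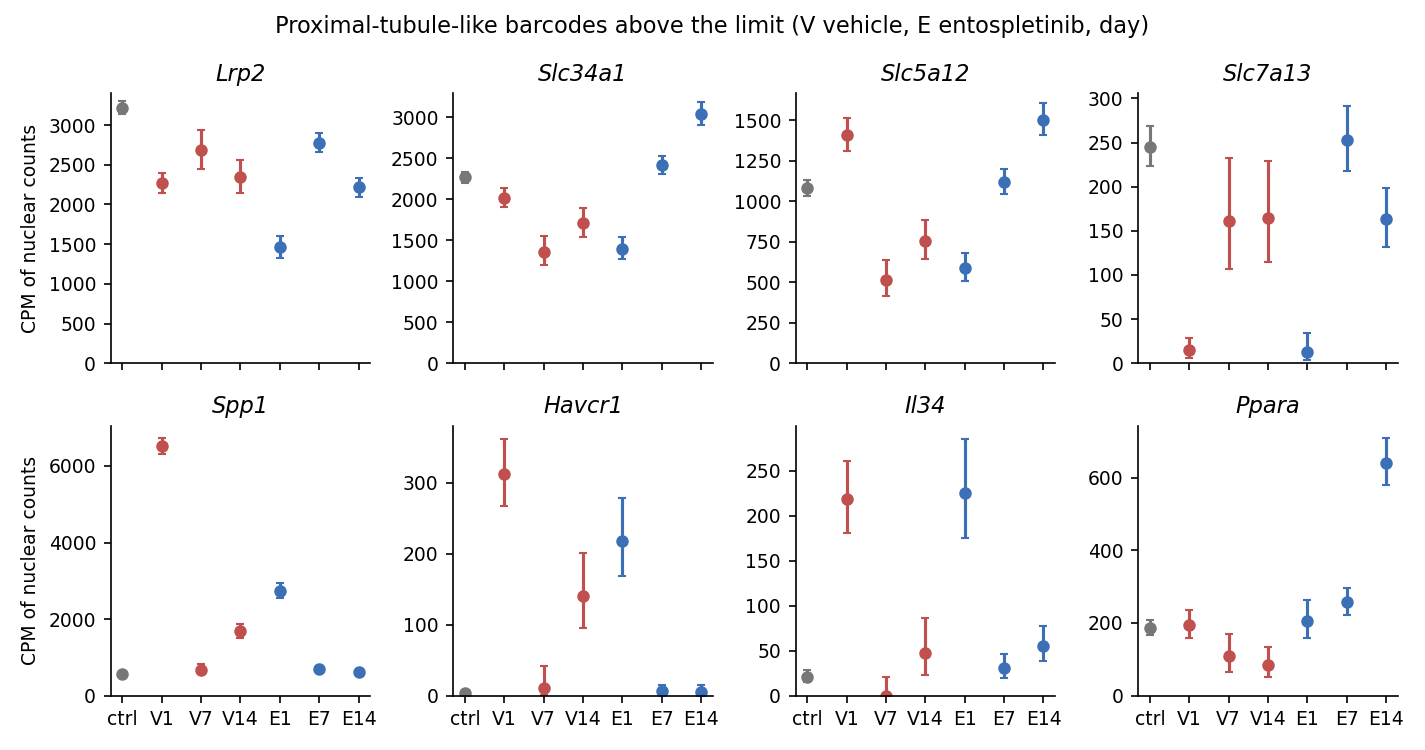
Levels of 8 genes in PT-like barcodes above the limit (vertical axes, CPM of nuclear transcripts, linear and from 0) in each pool (horizontal axis: ctrl control, V vehicle, E entospletinib, with the day), with 95% exact Poisson intervals. Havcr1 and Spp1 are highest under vehicle on day 1 (312 and 6519 CPM), and on day 14 entospletinib (5.04 and 616 CPM) is below vehicle (141 and 1678 CPM).

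Genes of the early PT and transport lists were not called against control, while Slc7a13, on the late PT list, and Slco1a1, an organic anion transporter on neither list (14.4 against 181 CPM), were called lower on day 1. None of the 4 early PT genes and none of 13 transport genes was called on day 1 (medians 0.29 and 0.18, all genes 0.39), and none of 12 and 13 transport genes on days 7 and 14 (medians -0.66 and -0.40 against -0.29 and 0.20). Lrp2 stood at 3216 CPM in control and at 2269, 2686 and 2350 CPM under vehicle. Slc7a13 was at 245 CPM in control and 14.4 CPM under vehicle on day 1, lower by 4.09 on the log2 scale (SD 1.16), and at 161 and 164 CPM on days 7 and 14. The late PT cluster that carried Slc7a13 and Slco1a1 in the second clustering held 281 barcodes of the control set (12.5%) and 8 of the vehicle set of day 1 (1.08%), so a smaller share of these cells and a lower level per cell cannot be told apart. In the Malat1-poor and the Malat1-rich cluster and without doublets, Slc7a13 was at -4.23, -2.37 and -4.60 on day 1, and Slco1a1 at -3.75, -2.39 and -3.49, but neither cluster separates the late PT. Ass1, the argininosuccinate synthase that makes arginine in the PT, was lower on day 1 (344 against 1282 CPM, log2 -1.90) and day 14 (526.3 CPM, log2 -1.28). In the same 3 settings it was at -1.63, -1.82 and -1.96 on day 1 and at -1.30, -0.82 and -1.07 on day 14, where the Malat1-rich cluster fell short of 2-fold. The 5 largest lower calls on day 1 also held Egf (10.8 against 154 CPM), Inmt and Itga9. On day 7 they were Hnf1aos1, an antisense RNA, Egf (22.96 against 154 CPM), Umod (17.2 against 106 CPM), Frmd4b and Nceh1, where vehicle had 1 count of Hnf1aos1, 4 of Egf and 3 of Umod. Egf and Umod mark the TAL, and TAL markers in PT-like barcodes summed to 589.7 CPM in control and 362 (day 1), 195 (day 7) and 343 CPM (day 14) under vehicle. Their part in the lower calls was not tested. On day 14 the 5 largest lower calls were Clec2h, Prdx5, Qdpr, Prelid1 and Fxyd2, from -2.28 to -1.65. Of 15 fatty acid oxidation genes 1 was called lower on day 1 (Acsm3), and of 30 nuclear genes of the respiratory chain 1 was called higher (Cox6a1, list median 0.11). Over all genes 7.77% were called higher and 1.53% lower on that day, so few calls in lists of this size are near this background.

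Entospletinib was compared with vehicle on each day. Higher and lower calls were 10 (0.296%) and 32 (0.948%) of 3376 genes on day 1, 114 (4.04%) and 10 (0.354%) of 2823 on day 7, and 27 (0.848%) and 68 (2.14%) of 3184 on day 14. The balance of directions was not the same within clusters. On day 1 the Malat1-poor cluster gave 26 higher and 10 lower and the Malat1-rich cluster 10 and 31. On day 7, 41 genes were higher and 10 lower in the Malat1-poor cluster and 43 higher and 94 lower in the Malat1-rich cluster, and on day 14 the values were 15 and 2 in the first and 15 and 66 in the second. Without doublets, day 14 gave 16 higher and 26 lower, of which 10 and 6 were among the calls of the whole class. Spp1 was lower by log2 -1.25 on day 1 (SD 0.55) and -1.45 on day 14 (SD 0.78), and was at 0.04 on day 7. On day 14, 8 injury genes reached the mean CPM needed for a call. Of these, 3 were called lower (Havcr1, Spp1 and Cd44, list median -1.21 against -0.14 over all genes). Havcr1 reached that mean only through vehicle, at 141 CPM against 5.04 CPM under entospletinib, and injury genes low in both pools were left out. The filter thus partly set this count and median. Havcr1 rested on 3 counts under entospletinib and 30 under vehicle, a log2 ratio of -4.81 with a counting interval of -7.16 to -3.12. Ppara, the nuclear receptor that switches on fatty acid oxidation, was at 187 CPM in control, 195, 109 and 84.6 CPM under vehicle and 205, 257 and 642 CPM under entospletinib, higher than vehicle by 1.23 on day 7 (SD 0.71) and 2.92 on day 14 (SD 1.02). It was among the leading genes of a Malat1-rich PT-like cluster. Of the fatty acid oxidation list, 1 of 12 genes was called higher on each of days 7 and 14, in both cases Ppara, with list medians of 0.47 and -0.08 against 0.50 and -0.14 over all genes. Col27a1, a fibrillar collagen, was higher on days 7 and 14 by 3.06 and 2.34, where vehicle had 3 and 8 counts. On day 1, Peak1, a pseudokinase, was at 1836 CPM under entospletinib and 103 CPM under vehicle, and Cyp4a14, a fatty acid hydroxylase, at 162 and 36.1 CPM. The other 3 of the 5 largest higher calls that day were Il31ra, Zfhx3 and Ubxn1, and the 5 largest lower ones were Cyp2a5, Pcdh7, Cdcp1, Ndfip2 and Rhobtb1, from -2.06 to -1.58. On day 7 the higher ones were Hnf1aos1, Col27a1, Baiap2l2, Atp6v0b and Frmd4b, the first 4 with 1 to 3 counts under vehicle, and the lower ones were Sspn, Tmtc2, Ccnb1ip1, Cmss1 and Filip1l, from -2.69 to -1.32. On day 14 the higher ones were Ppara, Snhg11, Adra1a, Scarna2 and Col27a1, and the lower ones Havcr1, Samsn1 (18.5 against 108 CPM), Myo1f, a myosin of blood cells (25.2 against 146 CPM), Alcam and Fat1.

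The PT-like barcodes of the pools differed in make-up. The Malat1-rich of the 2 main PT-like clusters held 21.3% of them in control, 43.8, 39.2 and 60% under vehicle and 57.1, 33.9 and 86.3% under entospletinib, and doublets were 10.9% in control and up to 31.6% under vehicle on day 14. PT-like barcodes of entospletinib day 14 stood apart in depth, with a median of 3233 nuclear transcripts against 1067 to 1174 in the other 6 pools (1079 under vehicle on day 14), and 1286 nuclear genes against 528 under vehicle. Neutrophil markers summed to 75.5 CPM in control and 418 CPM under vehicle on day 1, and S100a9, a neutrophil granule protein, was at 38.6 and 213 CPM. Macrophage markers on day 14 had counting intervals of 523 to 741 CPM under vehicle (133 counts) and 230.2 to 315.5 CPM under entospletinib (161 counts), against 471.5 to 536.9 CPM in control. Neutrophil, monocyte and T cell markers on that day summed to 273, 249 and 141 CPM under vehicle, against 75.5, 90.1 and 73.9 CPM in control and 109, 75.6 and 89.01 CPM under entospletinib. Their part in the calls was not tested. Within each of the 2 clusters and without doublets, Spp1 was higher on day 1 by 4.21, 3.21 and 3.65 and at -0.93, -1.24 and -1.14 for entospletinib against vehicle on day 14, the first of which falls short of 2-fold. Havcr1 on day 14 in the Malat1-rich cluster and without doublets was at 5.52 and 4.19 under vehicle against control and at -5.29 and -3.60 for entospletinib against vehicle. Cd44 on day 14 was at 0.91, 0.81 and 1.02 against control, so that it fell short of 2-fold within each cluster, and Ppara on day 7 was at 0.27 in the Malat1-poor and 1.38 in the Malat1-rich cluster. On day 14 Ppara was at 2.45 in the Malat1-rich cluster and 2.60 without doublets, and the Malat1-poor cluster held too few of its counts for a ratio.

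Across the 3 days, with the pool as the unit, no gene passed. edgeR's quasi-likelihood test on the 3 entospletinib and 3 vehicle pools with a term for day called 0 of 6673 genes at a Benjamini-Hochberg adjusted p of 0.05, with 471 at an unadjusted p under 0.05, and DESeq2 called 0 with 120 unadjusted. Leaving out day 1, 7 or 14 gave 88, 1 and 5 calls with edgeR, the first from 4 pools of days 7 and 14. The smallest adjusted p was 0.0761 for Col27a1 (log2 1.73, SE 0.32, edgeR). Ppara was at 1.30 (SE 0.36, adjusted p = 0.293, edgeR), Spp1 at -0.94 (SE 0.31, adjusted p = 0.516, edgeR) and Havcr1 at -1.37 (SE 0.46, adjusted p = 0.529, edgeR). On simulated counts for this comparison the test recovered 78% of genes changed 4-fold and 18.2% of those changed 2-fold. The simulation gave every gene the same dispersion (0.0434) and no effect of day, and counted only changed genes that passed the filter. These rates therefore need not hold for the real pools.

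Barcodes above and below the limit were also set side by side within the PT-like class. The limit selected one side, so the values are a description. In control, 18 genes (0.555%) were called higher and 13 (0.401%) lower above the limit of 3242, under vehicle on day 1 185 (4.74%) and 134 (3.43%) of 3907, and under entospletinib on day 7 27 (0.755%) and 47 (1.32%) of 3574. In control, Jun, an immediate early transcription factor, was at 67.3 CPM above and 156 CPM below. Under entospletinib on day 7, Fosb, of the same class, was at 39.9 and 152 CPM, and Kap, an androgen-regulated kidney protein of the PT, at 2303 and 665 CPM. Under vehicle on day 1, Amn, which anchors the cubilin receptor, was at 117 and 20.3 CPM. Macrophage markers in that pool summed to 155 CPM above and 671 CPM below.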

How the data were processed

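The authors demultiplexed the reads of 8 sublibraries, aligned them to mm10 and collapsed them to transcripts with the Parse pipeline, version 1.1, and deposited transcript counts for 120281 barcodes and 57010 genes, with a table of the number of genes and the transcript count of each barcode and its condition. Conditions came from that table, and mitochondrial shares were computed from the counts. The members and gene lists were chosen with earlier results of these data known. Nuclear genes were clustered with scanpy 1.11.5 (4000 variable genes, 40 components, 15 neighbours, Leiden resolution 1, seed 0) and clusters named from marker lists. Barcodes with a doublet score above 0.5 were kept. Summed counts were compared as CPM of nuclear transcripts, with 0.5 counts added per sublibrary and a floor of 3 counts. The rule for named genes took list members and, per comparison, the 5 largest calls in each direction, without predicted genes. All of the latter are named for comparisons between pools, and a part, chosen with values seen, for barcodes above against below the limit. Tests were edgeR 4.0.16, with DESeq2 1.42.0 as an alternative, and an exact permutation test. Alternatives covered the mitochondrial, gene and ribosomal limits, the ribosomal RNAs, naming, doublets and days left out. Intervals cover counting error only.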

Additional observations from a re-analysis of the deposited data

Results flagged for a closer look

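Of 42 groups of wells or sublibraries checked for a value far from the others, 2 held one, and chance gives about 1 in 20. The lowest control well had 12.04% of barcodes above the limit, and the lowest vehicle day 14 sublibrary had 1.204%.

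Some log2 ratios had opposite signs on different days in all sublibraries. The difference between days was not tested. The tubule-like share of barcodes above the limit, vehicle against control, was 0.1982 on day 1 and -0.5222 on day 7. In PT-like barcodes, Il31ra was at 1.368 against control on day 7 and -1.523 on day 1, and with entospletinib against vehicle at 2.723 on day 1, 1.871 on day 14 and -1.049 on day 7. Rhobtb1 was at 1.014 against control on day 1 and -1.839 on day 7, and with entospletinib against vehicle at 2.205 on day 7 and -1.582 on day 1.

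Among barcodes with at most 300 genes, which were not part of the set, 99.9% in the entospletinib pool of day 7 (2091 of 2093) were above the mitochondrial limit, against 97.1% in control.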

How the results depend on the processing

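The share above the limit over all pools (6.29%) became 7.988% at a limit of 20%, 4.912% at 30%, 4.175% with more than 500 genes, 6.939% with ribosomal protein genes under 1.5%, 5.795% without doublets and 0.2723% without the 2 mitochondrial rRNAs. Vehicle against control moved to -1.994 (day 1) and -3.208 (day 14) at 20%, and to -1.499, -3.963 and -5.952 on days 1, 7 and 14 without the rRNAs. Entospletinib against vehicle moved to -1.467, 4.417 and 1.49 without the rRNAs, to 1.414 (day 7) and 1.803 (day 14) with more than 500 genes, and to 1.116 (day 14) under the ribosomal limit. No ratio of shares above the limit changed sign among these values.

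The tubule-like share became 52.26% when the set was clustered alone, 68.84% by each barcode's own markers, 66.24% with more than 500 genes, 80.12% without doublets and 79.82% at 30%. Clustered alone, the ratios were -1.526 (vehicle day 1, reversed), -0.8575 (vehicle day 14), 0.6894 and 0.6769 (entospletinib days 1 and 14). By own markers they were -0.3012 (vehicle day 1, reversed), -0.2261 (vehicle day 14), 0.1521 and 0.372 (entospletinib days 1 and 14). With more than 500 genes, vehicle was at 0.3593 and 0.3924 on days 1 and 14. The cause was not tested.

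edgeR called 6 genes without a filter and 1 to 88 when 1 day was left out (88 without day 1, 1 without day 7, 5 without day 14), against 0. Added after seeing the data, counts of called PT-like genes were 321 (vehicle day 14), 51 (entospletinib day 7) and 17 (entospletinib day 14) in the Malat1-poor cluster, 151 and 139 (vehicle days 1 and 7) in the Malat1-rich cluster, and 46 (vehicle day 14) and 42 (entospletinib day 14) without doublets. Calls in PT-like barcodes rest on as few as 174243 nuclear transcripts in a pool (vehicle day 7).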
